A study of Mus musculus with 8 samples.

Results

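The effect of food allergy on the immune cells of the wild-type (WT) mouse brain was examined by comparing 2 single-cell RNA sequencing libraries, WT food allergy and WT control. Cells were taken where they had at least 500 gene UMIs, at least 200 genes, no more than 5% mitochondrial UMIs, and a top hashtag count of at least 50 that was at least 3 times the second. A UMI, or unique molecular identifier, stands for 1 captured transcript. These rules gave 6747 cells of WT control and 4584 cells of WT food allergy, 11331 of the 46314 cells that the same rules gave over the 8 libraries of the series. Both groups were C57BL/6J mice labelled as 16 weeks old, without the App NL-G-F knock-in alleles carried by 4 of the other libraries. The control mice received water alone. Per the study's methods, food allergy was produced by repeated intraperitoneal sensitization to ovalbumin (OVA) with alum and then by oral OVA on consecutive days. An antibody against CD45 was injected into the blood before perfusion, and CD45.2+ cells were sorted from the brain parenchyma. Whether a given cell had been reached by the injected antibody cannot be read from the counts. Each condition was 1 library, so genes were compared without a test.

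Each sample was stained with antibodies that carry a DNA hashtag, and hashtags 4 to 7 are listed in each library. Which mouse each hashtag marks was not given in the sources used here, so a hashtag group is called that and not a mouse. WT control held 4 hashtag groups, with 920, 2061, 2205 and 1561 cells for hashtags 4, 5, 6 and 7. WT food allergy held 3, with 1846, 2294 and 444 cells for hashtags 4, 5 and 7, and 0 cells with hashtag 6. Cells were placed in 6 gates by the UMIs of a few genes. The gates were T cell (Cd3e and Cd3d), B cell (Cd79a and Ms4a1), NK cell (Ncr1 without Cd3e), ILC2 (Gata3 and Il1rl1 without Cd3e), macrophage (C1qa and C1qb) and neutrophil (Csf3r with at least 10 UMIs of S100a8).

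The brain and its borders hold few leukocytes besides microglia and border-associated macrophages. Group 2 innate lymphoid cells (ILC2) reside in the meninges, respond to IL-33 through the receptor encoded by Il1rl1 and make IL-5, IL-13 and amphiregulin, the cytokines of type 2 immunity that also drive food allergy. Neutrophils are short-lived cells of the blood and bone marrow, and their granule proteins are made in sequence during maturation, azurophil proteins first and then those of the secondary granules. Type I interferon induces a common set of genes, among them Isg15, Ifit3, Bst2 and Rtp4, in nearly every cell type.

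Several properties of the libraries bear on every comparison. A single hashtag could be assigned to 94.1% of the filtered cells of WT control and to 74.7% of those of WT food allergy, where 1227 cells carried several hashtags and 325 carried too little of any. The cells with several hashtags had a median of 1188 UMIs in WT food allergy, below the 3341.5 of the kept cells, and of 5446 UMIs in WT control, above the 2647 of the kept cells. The kept cells of the libraries shared 41 barcodes. Immediate-early genes, such as Fos and Jun, are induced within minutes of stimulation or handling, and the 10 measured here divided the hashtag groups. Levels are given as CPM, the UMIs of a gene over all UMIs of the gated cells, scaled to a common total. In the T cell gate their summed level was 1460, 1156, 5971 and 6307 CPM in WT control hashtags 4, 5, 6 and 7. It was 5835, 6290 and 1849 CPM in WT food allergy hashtags 4, 5 and 7. The groups under 2500 CPM are called the low set below, and the others the high set, which had 2 hashtag groups in each library. The summed CPM of the 6 neutrophil markers in the T cell gate lay between 708 and 1553 in the WT control groups and between 1402 and 15148 in the WT food allergy groups, all 6 being detected in both libraries.

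The WT control library stood apart from the other 7 in short transcripts. In the T cell gate, 5 short ribosomal protein genes (Rps28, Rpl41, Rpl38, Rps29 and Rpl37) summed to 5818 CPM in WT control and to 12836 CPM in WT food allergy, the lowest and the second lowest of the 8 libraries. The highest was App NL-G-F control, with 24378 CPM. All WT control hashtag groups lay between 5672 and 6059 CPM and all WT food allergy groups between 12671 and 13934 CPM, so the difference followed the library and not the immediate-early sets. In every gate the median log2 ratio of WT food allergy to WT control fell from the shortest to the third of 5 length classes. In the T cell gate it was 0.22 for the 135 genes under 500 bases and −0.32 for the 415 genes of the longest class. The genes called higher in all of the T cell, B cell, NK cell and ILC2 gates were Tomm7, Rpl41, Sec61g, Rpl38, Cox7c and Rps28, and 5 of these 6 have transcripts under 1000 bases. Calls were therefore also made on ratios centred on the genes of like transcript length, and the text says where that changes the call of a gene it names or of a list. Of the 6 genes just named, Cox7c lost the call in the T cell, B cell, NK cell and ILC2 gates after centring, at 0.91 to 0.99. Rpl41 lost it in the B cell gate, at 0.99. This centring was added after the data had been seen.

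**Figure D1:**
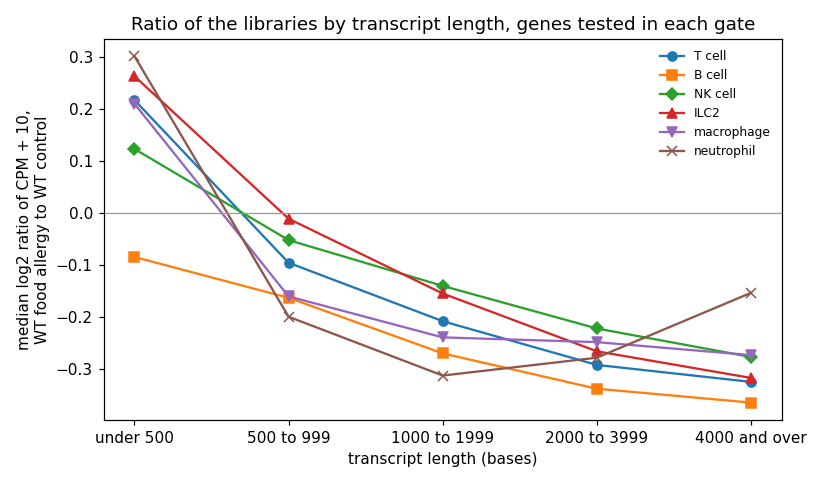
Median log2 ratio of CPM + 10, WT food allergy to WT control (vertical axis), of the genes tested in each of the 6 gates, by transcript length in bases (horizontal axis). Genes under 500 bases sit above the rest in every gate, at 0.22 in the T cell gate against −0.32 for the longest class.

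The composition of the libraries was compared first. Neutrophils made up 10.7% of the cells of WT food allergy (95% exact binomial interval 9.79 to 11.6, 489 of 4584 cells) and 2.31% of those of WT control (1.97 to 2.70, 156 of 6747 cells), a ratio of 4.61. The difference was 8.36 percentage points (7.39 to 9.35). Macrophages made up 9.32% against 3.84%, a ratio of 2.43. The T cell share was 15.5% against 23.2%, and the B cell share 7.57% against 14.6%. The NK cell share was 4.95% against 6.28%. The ILC2 shares of 5.43% and 5.23% differed by 0.200 points (−0.648 to 1.07). Intervals and floors cover counting error only.

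The hashtag groups varied more than these intervals. The neutrophil share was 0.217%, 0.0970%, 4.4% and 3.52% in WT control hashtags 4, 5, 6 and 7, and 12.9%, 10.8% and 0.676% in WT food allergy hashtags 4, 5 and 7. All low set groups were under 1%, and within the high set every WT food allergy group was above every WT control group. The macrophage share was 1.63%, 0.194%, 6.89% and 5.64% in WT control and 7.80%, 12.1% and 1.35% in WT food allergy. Within the high set both WT food allergy groups were again above both WT control groups, and all low set groups were under 2%. The ILC2 share was 2.72%, 1.75%, 7.89% and 7.56% in WT control and 4.33%, 5.36% and 10.4% in WT food allergy, so that the highest group of the comparison was the low set group of WT food allergy. The mean of the 3 WT food allergy groups was 8.13% ± 6.55 (SD, n = 3) neutrophils, and that of the 4 WT control groups 2.06% ± 2.23 (SD, n = 4). The exact two-sided permutation test over hashtag groups gave p = 0.171 for neutrophils, adjusted p = 0.514 over the 6 gates by the Benjamini-Hochberg method. The smallest p that 4 against 3 groups allow is 0.0571. For macrophages the exact permutation p was 0.286 and for B cells 0.171. It was 0.514 for T cells, 0.80 for NK cells and 0.514 for ILC2, and the lowest adjusted p over the 6 gates was 0.514. Where the hashtag groups do not mark separate mice, these p-values measure only a technical spread.

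**Figure D2:**
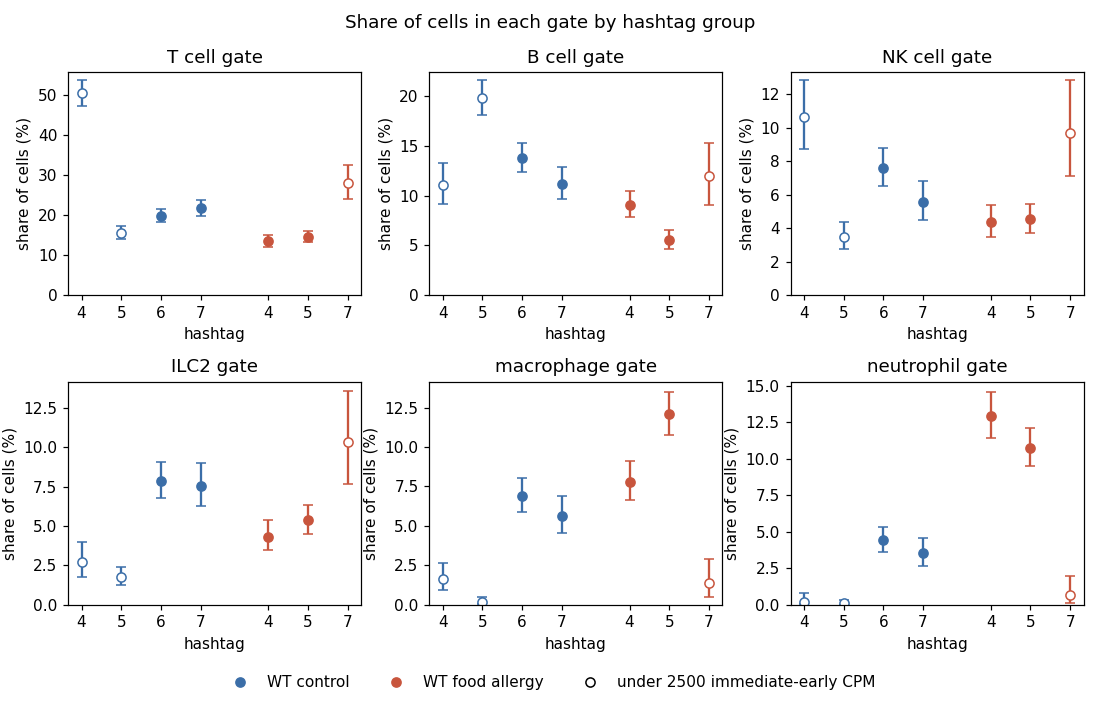
Share of cells in each gate (vertical axis, %) in the hashtag groups of WT control (blue) and WT food allergy (red), with 95% exact binomial intervals. Open points are groups under 2500 immediate-early CPM in the T cell gate. The filled red points lie above the filled blue points for neutrophils (10.8% and 12.9% against 3.52% and 4.4%) and macrophages, and below them for T, B, NK and ILC2 cells.

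Within the high set, the neutrophil share was 11.7% in WT food allergy and 4.04% in WT control, a ratio of 2.91 and a difference of 7.70 points (6.52 to 8.89). The macrophage share was 10.2% against 6.37%. The T cell share was 14.1% against 20.7%, the B cell share 7.10% against 12.7% and the NK cell share 4.44% against 6.74%. The ILC2 share was 4.90% against 7.75%, lower by 2.85 points. In the low set, with 1 group in WT food allergy, the ILC2 share was 10.4% against 2.05%, so the ILC2 difference turned between the sets. The T cell share there was 28.2% against 26.4%, a difference of 1.79 points (−2.66 to 6.49), and the NK cell share 9.68% against 5.7%, a difference of 3.98 points (1.24 to 7.22), so these turned too. The ILC2 difference was also −1.33 points without WT control hashtag 5 and 1.49 points without WT control hashtag 6. The T cell difference was −3.37 points without WT control hashtag 4, and the macrophage difference 2.71 points without WT food allergy hashtag 5. A neutrophil gate with at least 10 UMIs of S100a9, or with only 3 of S100a8, left the neutrophil shares at 10.6% against 2.24% and at 10.8% against 2.53%. Both S100a8 and S100a9 are short transcripts. Both were also higher in the T cell gate of WT food allergy, S100a8 at 8356 against 566 CPM and S100a9 at 11058 against 962 CPM. Gates built on this pair cannot show whether RNA from other cells brought cells into them, and that was not tested. Side by side, the App NL-G-F food allergy library had 6.49% neutrophils and 2.25% macrophages, and the App NL-G-F control library 3.06% and 3.52%. Whether the food allergy difference depends on the genotype was not tested.

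For genes, UMIs were summed over the cells of a gate and given as CPM. A gene was tested for a call with at least 50 UMIs over both libraries and 50 CPM in the higher one. It was called higher or lower where the ratio of CPM + 10 was at least 2-fold and no hashtag group with at least 20 gated cells overlapped the groups of the other library. The median log2 ratio of all genes tested lay between −0.28 and −0.16 in the 6 gates, so a group of genes is read against that median. Scaling by the median of ratios moved that median close to 0 and moved the calls, higher and lower, from 24 and 18 to 54 and 8 in B cells, from 25 and 5 to 39 and 2 in NK cells, from 29 and 17 to 46 and 6 in ILC2, from 71 and 70 to 115 and 40 in macrophages and from 39 and 33 to 61 and 12 in neutrophils. In T cells 31 and 4 became 61 and 4. Without WT food allergy hashtag 7, the calls numbered 127 in T cells, 142 in B cells, 76 in NK cells and 82 in ILC2, in place of 35, 42, 30 and 46, and without WT food allergy hashtag 4 the ILC2 gate had 92. In pooled gates, fewer cells of a subtype and less RNA per cell cannot be told apart. Free RNA was measured in barcodes with 10 to 100 UMIs. It held 1006 CPM of S100a8 in WT control and 18611 CPM in WT food allergy.

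In the neutrophil gate, 4 interferon-stimulated genes were called higher in WT food allergy, Isg15, Rtp4, Ifi27l2a and Bst2, and 0 lower, of 12 on the list and 6 that passed the filter. Over all 2238 genes tested in the neutrophil gate, 1.74% were called higher and 1.47% lower. The list's median log2 ratio was 1.33, against −0.24 for all genes tested. All calls in this gate rest on 2 hashtag groups of each library, all from the high set. Centred on genes of like length, the same 4 genes were called and the list's median was 1.60. That centring called 74 of the 2237 genes with a known transcript length, higher and lower together.

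Isg15, a ubiquitin-like protein induced by interferon (chr4:156199424-156200818, GRCm38), was at 16.8 and 24.5 CPM in the WT control groups and at 142 and 102 CPM in the WT food allergy groups. Its log2 ratio was 2.19. Ifi27l2a, a small interferon-induced protein, was at 17.7 and 20.0 CPM in WT control and at 195 and 303 CPM in WT food allergy, a log2 ratio of 2.82. Neither gene's groups overlapped. Rtp4, a chaperone of receptors that interferon induces, went from 15.1 and 24.5 CPM to 53.4 and 59.9 CPM (log2 ratio 1.28). Bst2, or tetherin, which holds enveloped viruses at the cell surface, went from 23.0 and 2.23 CPM to 56.8 and 85.5 CPM (log2 ratio 1.37). For Rtp4, Ifi27l2a and Bst2 the level in the WT food allergy neutrophils was below that in the library's free RNA, which held 59.6, 314 and 222 CPM. In gated cells of no other gate, 3 of the 4 were still called, Isg15 in the neutrophil gate with a log2 ratio of 2.16, Rtp4 in the neutrophil gate with 1.23 and Ifi27l2a in the neutrophil gate with 3.19. Bst2 in the neutrophil gate was then at 1.10 and not called. Irf7, the regulator of the interferon response, was at 53.2 and 89.0 CPM in WT control and 87.0 and 69.4 CPM in WT food allergy, and its groups overlapped.

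RNA of other cell types was also higher in this gate. Of the 39 genes called higher, 32 were below their level in the free RNA of WT food allergy, and 61 of the 489 gated cells of WT food allergy also met another gate, against 7 of 156 in WT control. The genes called higher included the antigen presentation genes H2-Aa (log2 ratio 3.70), H2-Ab1 (3.45) and Cd74 (3.42), and the complement genes C1qa (1.35), C1qb (1.07) and C1qc (1.41), which were chosen after their values had been seen. The 7 macrophage markers summed to 160 to 370 CPM in the WT control groups of the neutrophil gate and to 615 to 704 CPM in those of WT food allergy. The 4 plasma cell markers summed to 179 to 231 CPM and to 638 to 1109 CPM, and the 6 B cell markers to 6.68 to 23.9 CPM and to 223 to 506 CPM. All of these markers were detected in WT food allergy, while 2 macrophage, 1 plasma cell and 2 B cell markers were at 0 in WT control. The part of this RNA in the interferon-stimulated genes was not tested beyond the cells of no other gate.

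Promoters were looked up because these genes moved together. The promoter table held Isg15 and Bst2 but not Rtp4 and Ifi27l2a, so 2 of the 4 promoters were searched. The sequences are the 250 bases before the start of each gene from RefSeq (GRCm38.p6), read on the minus strand, at chr4:156200819-156201068 for Isg15 and chr8:71537473-71537722 for Bst2. Capitals mark every match of GAAA followed, after any 2 bases, by GAAA, or of TTTC followed likewise by TTTC, which is the same motif on the other strand. This is the core of the interferon-stimulated response element, and overlapping matches are joined.
Isg15: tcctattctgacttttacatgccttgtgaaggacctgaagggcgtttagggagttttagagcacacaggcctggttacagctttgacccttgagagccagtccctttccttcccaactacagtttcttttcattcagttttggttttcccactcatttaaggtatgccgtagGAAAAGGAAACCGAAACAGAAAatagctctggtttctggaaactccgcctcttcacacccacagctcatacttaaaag
Bst2: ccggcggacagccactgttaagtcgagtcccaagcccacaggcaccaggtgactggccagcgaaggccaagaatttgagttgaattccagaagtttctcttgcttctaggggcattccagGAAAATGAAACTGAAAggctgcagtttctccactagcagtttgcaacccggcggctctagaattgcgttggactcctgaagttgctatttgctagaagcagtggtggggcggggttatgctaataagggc
There were 3 overlapping matches before Isg15 and 2 before Bst2. The motif was present in 2.98% of the 32851 promoters searched over the same 250 bases. A match describes the sequence and does not show that a factor was bound. Both genes were on the interferon-stimulated list before the search, so the matches are background and not evidence from these data.

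Granule genes of neutrophils did not move as a block. Of the 11 secondary granule genes, all of which passed the filter, 1 was called higher (Camp) and 3 lower (Chil3, Olfm4 and Ifitm6). Camp, which encodes the antimicrobial peptide cathelicidin, was at 12929 and 8101 CPM in WT control and at 23768 and 22898 CPM in WT food allergy, a log2 ratio of 1.05. Ltf, for lactoferrin, had a log2 ratio of −0.12 and was not called. Ngp was at 35929 and 34587 CPM in WT control and at 37163 and 32249 CPM in WT food allergy, and its groups overlapped. Chil3, a chitinase-like protein, was at 5555 and 2871 CPM in WT control and at 2172 and 2065 CPM in WT food allergy, a log2 ratio of −1.17. Olfm4, which marks a subset of neutrophils, was at 292 and 167 CPM against 76.2 and 76.8 CPM (log2 ratio −1.59). The 5 azurophil granule genes tested, among them Elane, Mpo and Prtn3, had a median log2 ratio of −0.80, with all 5 below 0 and 0 called. Elane, for neutrophil elastase, was at 813 and 80.1 CPM in WT control and at 578 and 306 CPM in WT food allergy.

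Of the 12 genes of mature neutrophils, 3 were called lower (Ifitm1, Asprv1 and Lipg) and 0 higher. Lipg, an endothelial-type lipase, was at 185 and 158 CPM in WT control and at 40.5 and 24.7 CPM in WT food allergy, a log2 ratio of −2.09. Asprv1, an aspartic protease, was at 1119 and 2032 CPM against 756 and 402 CPM, a log2 ratio of −1.18. Saa3, an acute-phase protein, was at 182 and 356 CPM against 25.3 and 42.5 CPM, a log2 ratio of −2.56. Chil3, Ifitm6, Ifitm1 and Asprv1 were no longer called after centring by length, with values between −0.98 and −0.86, or with median-of-ratios scaling. Other leading genes were Ccrl2, a chemerin receptor (log2 ratio 1.42), and Lst1, a leukocyte membrane protein (1.35), which were higher. Prnp, the prion protein (−1.90), Ecm1 (−1.89) and Ggt1 (−1.74) were lower. Igha also met the rule, with 2642 UMIs in WT food allergy against 0, but 1 cell held 2639 of them. Il1b, for interleukin-1β, was at 810 and 2522 CPM in WT control and 2321 and 2623 CPM in WT food allergy, and its groups overlapped.

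**Figure D3:**
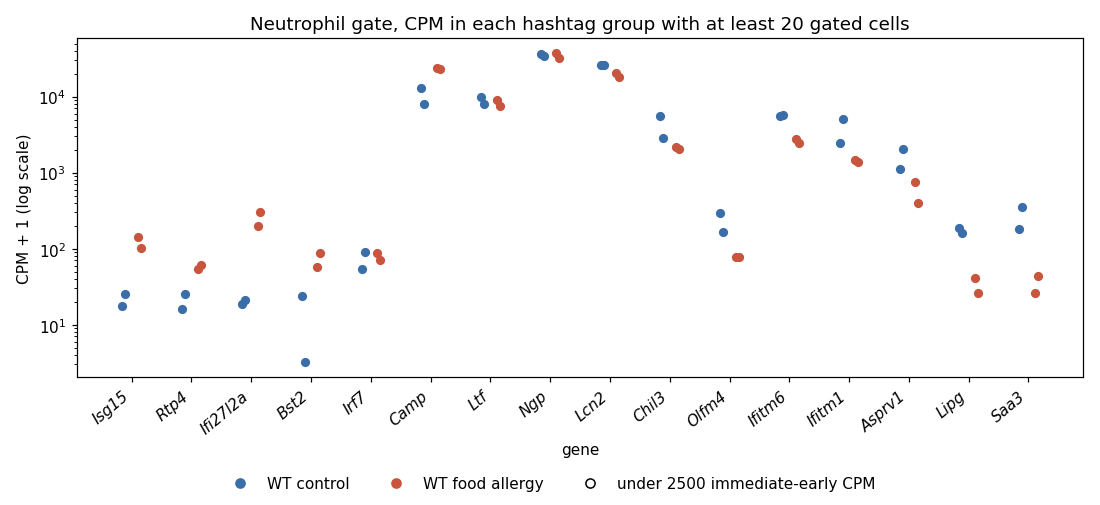
CPM + 1 on a log axis of 16 genes in the neutrophil gate, in WT control hashtags 6 and 7 (blue) and WT food allergy hashtags 4 and 5 (red), 1 point a hashtag group. Isg15, Rtp4, Ifi27l2a, Bst2 and Camp lie higher in both red groups, Ltf and Ngp lie level, and Olfm4, Lipg and Saa3 lie lower in both.

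In the macrophage gate, 3 of the 10 border-macrophage genes tested were called lower in WT food allergy, Lyve1, F13a1 and Cbr2, and 0 higher, against 2.24% of the 3129 genes tested called lower and 2.27% called higher. The list's median log2 ratio was −0.60, against −0.22 for all genes. The same 3 were called after centring by length, which called 148 of 3126 genes, higher and lower together. F13a1, for coagulation factor XIII (chr13:36867178-37050244), was at 809 and 788 CPM in WT control and at 263 and 234 CPM in WT food allergy, a log2 ratio of −1.57. Lyve1, a hyaluronan receptor of perivascular and meningeal macrophages, was at 69.3 and 54.8 CPM against 37.3 and 2.5 CPM (log2 ratio −1.40). Its counts were few, with 68 UMIs in 28 cells of WT control, 15 of them in 1 cell. In WT food allergy there were 42 UMIs in 11 cells, 18 of them in 1 cell. Cbr2, a carbonyl reductase, was at 254.6 and 289.5 CPM against 79.5 and 104 CPM (log2 ratio −1.28). The other 7 members, among them Mrc1 (−0.34) and Pf4 (0.15), were not called, and 3 members were above 0. In gated cells of no other gate Cbr2 in the macrophage gate was at −0.93 and not called.

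The same gate held far more neutrophil RNA in WT food allergy. S100a8 was at 1772 and 1228 CPM in the WT control groups and at 29154 and 18384 CPM in the WT food allergy groups. The 5 largest rises of genes above the free RNA level, without V segments, were S100a8, Wfdc21, Camp, Cstdc4 and S100a9. Their log2 ratios lay between 3.38 and 3.98. Jchain, Elane and V segments were also called higher in the macrophage gate and rose more. Of the 427 gated cells of WT food allergy, 33 also met the neutrophil gate. The summed neutrophil markers were at 3603 to 4178 CPM in WT control and at 29160 to 45458 CPM in WT food allergy. With the gated cells that held 10 or more S100a8 UMIs left out, 43 genes were called higher and 61 lower in place of 71 and 70, and the macrophage share was 7.16% against 3.78%. The part of this RNA in the lower border-macrophage genes was not tested.

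Other macrophage genes that were called lower were Chil3 (log2 ratio −1.24), Ccl3, a chemokine for monocytes and lymphocytes (−1.14), and Fn1, for the matrix protein fibronectin (−1.54). The chaperones Hspa1a (−1.09) and Hspa1b (−1.33) were also lower. With median-of-ratios scaling Chil3, Ccl3, Hspa1a and Hspa1b were not called, and after centring by length Ccl3 (−0.97) and Hspa1a (−0.83) were not. Among called genes above the free RNA level, the 5 with the largest fall were Hbb-bs, Igf2, Saa3, Lyz1 and Ms4a8a. Below that level, Calca (−2.76) and Car2 (−2.25) fell more than Lyz1 (−2.20). Igf2, an insulin-like growth factor, was at 51.2 and 177 CPM in WT control and at 2.94 and 3.12 CPM in WT food allergy, a log2 ratio of −2.90. Saa3 was at 328 and 569 CPM against 51.0 and 44.3 CPM (log2 ratio −2.76). Hbb-bs, a haemoglobin gene, had 463 UMIs in WT control, of which 1 cell held 373. Ifi27l2a was the 1 of 8 interferon-stimulated genes called higher, at 484 and 391 CPM in WT control and 1035 and 940 CPM in WT food allergy (log2 ratio 1.15). After centring by length 3 of the 8 were called higher, Ifit3, Rtp4 and Ifi27l2a. Of 6 cell cycle genes 0 were called as measured and 3 after that centring, Mki67, Stmn1 and Ube2c, all higher. That centring called 148 of the 3126 genes with a known transcript length, higher and lower together. The 7 MHC class II genes, which present antigen to CD4+ T cells, had a median log2 ratio of 0.16 with 0 called. H2-Aa was at 5547 and 8266 CPM in WT control and 7117 and 7460 CPM in WT food allergy.

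**Figure D4:**
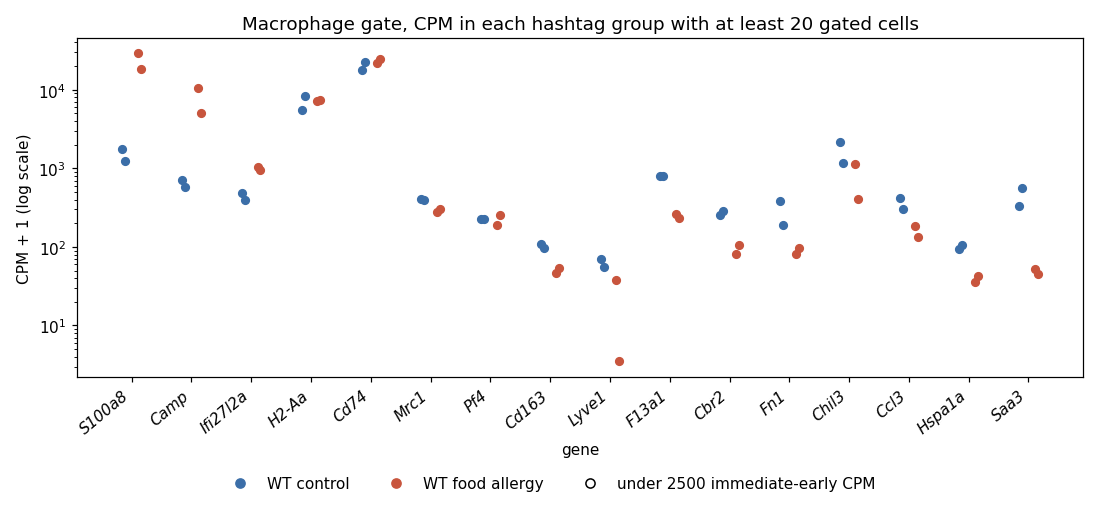
CPM + 1 on a log axis of 16 genes in the macrophage gate, in WT control hashtags 6 and 7 (blue) and WT food allergy hashtags 4 and 5 (red). S100a8 and Camp lie far higher in the red groups, H2-Aa and Cd74 overlap, and Lyve1, F13a1, Cbr2 and Saa3 lie lower.

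In the ILC2 gate no type 2 effector gene was called over all hashtag groups, where 0.820% of 3537 genes were called higher and 0.481% lower. Of the 11 genes on that list 7 passed the filter, with a median log2 ratio of −0.28 against −0.17 for all genes. Il13 was at 0, 0, 101 and 120 CPM in WT control hashtags 4, 5, 6 and 7 and at 63.7, 130 and 0 CPM in WT food allergy hashtags 4, 5 and 7. Areg, for amphiregulin, was at 25.3, 83.6, 544 and 1191 CPM and at 644, 808 and 261 CPM. Both were lowest in the low set groups, and their levels within the high set overlapped between the libraries.

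Il5 and Calca differed within the high set. Il5, for the cytokine that eosinophils depend on, was at 52.0 and 329 CPM in WT control and at 0 and 1.58 CPM in WT food allergy. Over all groups that was 118 UMIs against 1, or 130 CPM (108 to 156) against 0.882 CPM (exact Poisson interval 0.0223 to 4.91). The 118 UMIs lay in 11 cells of WT control, 28 of them in 1 cell. The Poisson intervals cover counting error only and leave out this clustering, so the Il5 difference rests on few cells. Calca, which encodes the neuropeptide CGRP (chr7:114631478-114636357), was at 3424 and 5724 CPM in the WT control high set and at 242 and 223 CPM in that of WT food allergy, a log2 ratio of −4.20. In the low set it was at 114 and 60.8 CPM in WT control and 282 CPM in WT food allergy. The WT food allergy level was thus much the same in all 3 groups, while WT control spanned both extremes.

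Several receptors and regulators of ILC2 were called lower within the high set. There, 3.51% of 3587 genes were called lower and 2.09% higher, 2 hashtag groups against 2. Of 14 receptor genes tested 4 were called lower (Il4ra, Ramp3, Ccr8 and Icos), and of 9 regulators 4 were (Rora, Nfkb1, Nfkbia and Tnfaip3), with 0 higher in either list. The median log2 ratio was −0.30 over the receptors and −1.01 over the regulators, against −0.17 for all genes, and the other 10 receptors were not called. Of the 7 type 2 effector genes, 2 were lower, Il5 and Calca. Ramp3, part of receptors for the CGRP family, was at 215 and 728 CPM in WT control and 22.3 and 41.1 CPM in WT food allergy, a log2 ratio of −3.29. Icos, a costimulatory receptor that sustains ILC2, was at 331 and 652 CPM against 147 and 191 CPM (log2 ratio −1.35). Rora, a transcription factor that ILC2 need to develop, was at 309 and 556 CPM against 112 and 122 CPM (log2 ratio −1.72). Tnfaip3, the inhibitor A20 of NF-κB signalling, was at 1358 and 1506 CPM against 503 and 546 CPM (log2 ratio −1.40). Nfkb1 and Nfkbia were not called after median-of-ratios scaling or centring by length. Neutrophil RNA in this gate differed among the WT food allergy groups, with S100a8 at 60.5 CPM in hashtag 4, 10439 CPM in hashtag 5 and 3224 CPM in hashtag 7. Its part in these genes was not tested.

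Over all hashtag groups, 17 genes were called lower in the ILC2 gate. Hs3st1, a heparan sulfate sulfotransferase (chr5:39613935-39755475), was at 290, 281, 596 and 1300 CPM in WT control hashtags 4 to 7 and at 217, 226 and 219 CPM in WT food allergy hashtags 4, 5 and 7, a log2 ratio of −1.71. Nr3c1, the glucocorticoid receptor, was at 404, 205, 351 and 573 CPM against 182, 172 and 197 CPM (log2 ratio −1.14). Fgl2, a secreted fibrinogen-like protein, had a log2 ratio of −1.15, and Lmna, for lamin A, one of −1.58. Relb (−1.17) and Bcl3 (−1.15), both of the NF-κB family, were lower as well. Trmt61b, which methylates transfer RNA, had a log2 ratio of −1.60 and Enpp4 one of −1.16. Nr3c1 and Fgl2 lost the call under both rescalings, Lmna and Bcl3 under median-of-ratios scaling and Relb and Enpp4 after centring by length. Among called genes above the free RNA level, the largest rises were Rps28, Ndufa5, Anapc13, Rpl38 and Rpl41, with log2 ratios between 1.38 and 1.59. They include 3 of the 5 short ribosomal genes above. Mcemp1 (2.06), Sp140 (1.57) and Ccl5 (1.56) were also called higher but lay below that level.

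**Figure D5:**
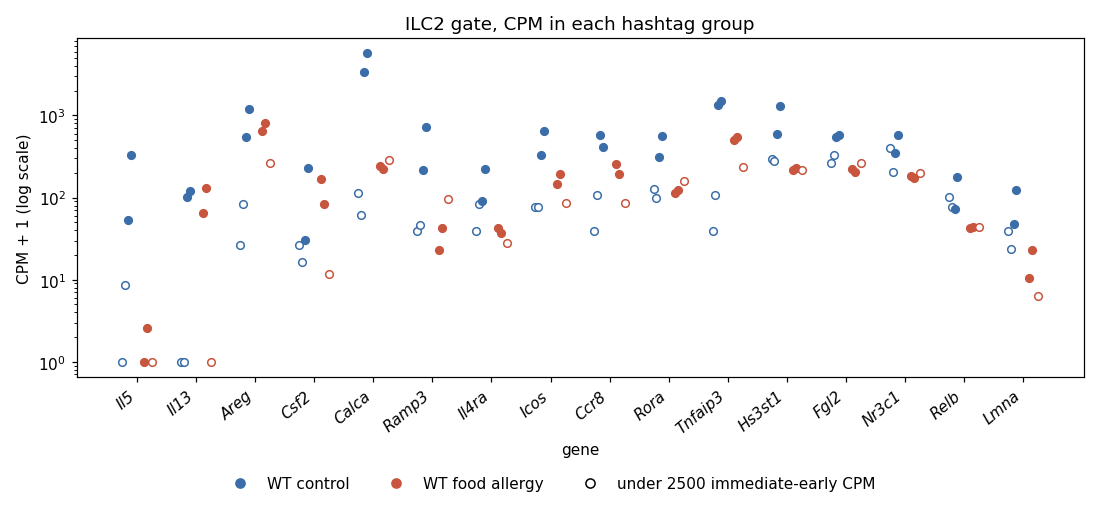
CPM + 1 on a log axis of 16 genes in the ILC2 gate, in each hashtag group of WT control (blue) and WT food allergy (red). Open points are the groups under 2500 immediate-early CPM. Calca stands at 3424 and 5724 CPM in the filled blue groups only, and Hs3st1, Nr3c1, Relb and Lmna lie lower in all 3 red groups than in every blue group.

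In the T cell gate 0.892% of the 3475 genes were called higher and 0.115% lower. Apart from the V segment Igkv9-129 (log2 ratio −4.93), the genes called lower were Dnaja1, Dnajb1 and Gzmb. The chaperones Dnaja1 and Dnajb1 were 2 of the 6 heat-shock genes tested, and Gzmb was 1 of 12 effector and resident genes. Gzmb, for the cytotoxic protease granzyme B (chr14:56258838-56262260), was at 126, 84.9, 139 and 79.9 CPM in WT control hashtags 4 to 7 and at 49.8, 31.5 and 60.2 CPM in WT food allergy, a log2 ratio of −1.27. Dnaja1 was at 796, 821, 342 and 565 CPM against 297, 227 and 229 CPM (log2 ratio −1.27). Among called genes above the free RNA level and without V segments, the 5 with the largest rises were Slpi, Ighm, Mzb1, Tomm7 and Prdx4. Genes below that level rose more than some of these, among them S100a8 (log2 ratio 3.86), Jchain (2.82) and Igkc (2.40). Slpi, a protease inhibitor of myeloid and epithelial cells, was at 17.3 to 36.3 CPM in WT control and at 1013, 941 and 141 CPM in WT food allergy, and 1 cell held 1313 of its 3276 UMIs there. Ighm, the μ chain of B cells, was at 110 to 705 CPM against 2074 to 2427 CPM, with 1954 CPM in the free RNA of WT food allergy. Dnajb1 (log2 ratio −1.30) was not called after centring by length. Summed B cell markers in the T cell gate were at 366 CPM in WT control and 2465 CPM in WT food allergy. What part of these rises came from B cell or myeloid RNA was not tested.

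Type 2 helper genes gave little signal in T cells. Of the 9 on the list, 2 passed the filter and 0 were called. Gata3, the regulator of that lineage, was at 50.4, 49.3, 60.7 and 69.9 CPM in WT control and at 74.3, 71.5 and 57.9 CPM in WT food allergy (log2 ratio 0.26), so its groups overlapped. Il4 had 31 and 26 UMIs, Il5 0 and 2, and Il13 0 and 3, below the filter.

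Genes of IL-17-type T cells were lower within the high set. Of 7 tested there, 5 were called lower, among them Trdc, Il17a, Il1r1 and Blk, and 0 higher, against 1.15% of 3475 genes called lower and 3.25% called higher. Il17a, for the cytokine itself, was at 568 and 354 CPM in WT control and at 139 and 63.9 CPM in WT food allergy, a log2 ratio of −2.28. In the low set it was at 2.62 and 0 CPM in WT control and 2.32 CPM in WT food allergy. Trdc, the constant region of the γδ receptor, was at 160 and 192 CPM against 83.3 and 63.4 CPM (log2 ratio −1.18), and it lost the call after rescaling. Of the 8 checkpoint and regulatory genes, 2 were called lower, Pdcd1 and Tigit. Pdcd1, for the inhibitory receptor PD-1, was at 607 and 694 CPM in WT control and 133 and 108 CPM in WT food allergy, a log2 ratio of −2.36. Over all hashtag groups, 0 genes of either list were called.

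In the B cell gate 0.725% of 3311 genes were called higher and 0.544% lower. The interferon-induced Ifi27l2a was called higher, at 101 to 247 CPM in WT control and 347 to 540 CPM in WT food allergy (log2 ratio 1.19), 1 of 5 tested on its list. Top2a, a topoisomerase of dividing cells, was called higher, at 30.5, 63.2, 23.5 and 9.46 CPM in WT control and at 84.4, 93.3 and 178 CPM in WT food allergy (log2 ratio 1.18), 1 of 6 cell cycle genes tested. After centring by length Stmn1 was called higher too, where 40 of 3308 genes were called, higher and lower together. Iglc1, a light chain constant region, was 1 of 8 immunoglobulin genes called higher, with a log2 ratio of 1.0. Apart from V segments, genes with the largest falls were Wnt10a (−1.22), Clec2i (−1.17), Card6 (−1.14), Osbp (−1.12) and Limd1 (−1.12), at 57.6 to 89.5 CPM in WT control. The chaperone Hsph1 (−1.05) was lower too. After rescaling by either method these 6 were not called. Iglc1 lost the call after centring by length alone.

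Within the high set of the B cell gate, 3.34% of 3268 genes were called higher and 2.29% lower. Of 6 cell cycle genes 4 were called higher, Mki67, Top2a, Birc5 and Stmn1. Of 10 mature B cell genes 5 were called lower, Ighd, Fcer2a, Cr2, Ccr7 and Fcmr. Ighd, the δ chain of naive B cells, was at 196 and 128 CPM in WT control and 56.6 and 39.8 CPM in WT food allergy, a log2 ratio of −1.61. Fcer2a and Fcmr lost the call after rescaling. Of 8 immunoglobulin genes 2 were called higher, Iglc1 and Ighg2b. Ighg2b, the IgG2b constant region (chr12:113302965-113307933), was at 3.20 and 1.58 CPM in WT control and at 645 and 881 CPM in WT food allergy, where 1 cell held 771 of 1402 UMIs. It was at 0 CPM in the low set group of WT food allergy. Ighe, the IgE constant region, was at 0 UMIs in both libraries, where 3 UMIs would have been 1.51 CPM in WT food allergy and 0.998 CPM in WT control. The summed neutrophil markers also differed in this gate, at 211 CPM in WT control and 13031 CPM in WT food allergy. The summed plasma cell markers were at 5836 and 9889 CPM, and the part of either in these genes was not tested.

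In the NK cell gate 0.674% of 3709 genes were called higher and 0.135% lower. Among called genes above the free RNA level, the largest rises were Rps28, Rpl41, Rpl37, Rpl38 and Rps29, with log2 ratios between 1.24 and 1.44. Ltf (3.47), Anapc13 (1.36) and Ndufb1-ps (1.33) were also called higher but lay below that level. The genes lower were Cpne7 (−1.39), Klhdc2 (−1.16), Zyg11b (−1.04), Cbx7 (−1.0) and the chaperone Dnajb1 (−1.45). Zyg11b and Cbx7 lost the call under both rescalings, Cpne7 under median-of-ratios scaling and Klhdc2 after centring by length. Dnajb1 was at 294, 203, 148 and 148 CPM in WT control hashtags 4 to 7 and at 51.5, 71.9 and 59.9 CPM in WT food allergy. Of 9 cytotoxicity genes, 5 cytokine genes and 12 maturation genes tested, 0 were called. Within the high set, where 2.10% of 3715 genes were called higher and 0.888% lower, Gzmb and Il7r were called lower, which both rescalings undid, and Gzmc higher. Gzmc, a granzyme, was at 57.0 and 49.5 CPM in WT control and 467 and 146 CPM in WT food allergy. In the low set it was at 721 and 857 CPM in WT control and 1173 CPM in WT food allergy, so it was not low in WT control as a whole.

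Some lists moved alike in several gates. Interferon-stimulated genes had a median log2 ratio above 0 in all 6 gates, at 0.30 in T cells, 1.05 in B cells, 0.49 in NK cells, 0.55 in ILC2, 0.46 in macrophages and 1.33 in neutrophils, whereas the median of all genes was below 0 in each. Between 4 and 8 of the 12 genes passed the filter. Over all groups, calls were made for Ifi27l2a in B cells and macrophages and for the 4 genes in neutrophils. Within the high set, 3 of 5 tested in B cells were called higher, Isg15, Ifi27l2a and Bst2. Ifi27l2a was called higher there in T cells and NK cells, and Bst2 in ILC2. Heat-shock chaperones had a median below that of all genes in 5 gates, from −0.95 in T cells to −0.41 in NK cells, and in neutrophils the medians were −0.23 and −0.24. Glucocorticoid target genes had medians between −0.39 and −0.030 with 0 called over all groups, and immediate-early genes had 0 called in any gate. Within the high set, the glucocorticoid targets Zbtb16 in T cells and Tsc22d3 and Fkbp5 in B cells were called lower. The 6 comparisons share their libraries, so their agreement is not counted as repeated evidence.

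The levels were last set beside the other 6 libraries of the series, which differ in genotype and treatment. Of the 70 genes called lower in macrophages, WT control alone lay outside the range of the other 6 libraries for 44 and WT food allergy alone for 5. Of the 71 called higher there, WT food allergy alone lay outside for 47 and WT control alone for 5. Of the 33 called lower in neutrophils, WT control alone lay outside for 16 and WT food allergy alone for 5. Among genes called higher, both libraries lay outside for 14 of 31 in T cells and 13 of 24 in B cells. It was 17 of 25 in NK cells, 20 of 29 in ILC2 and 16 of 39 in neutrophils. These genes were picked for differing between the 2 libraries. The share over all genes tested was not computed, so the counts are given as description only. Saa3 in macrophages was at 372 CPM in WT control, against 0 to 76.8 CPM in the others and 46.3 CPM in WT food allergy. Isg15 in neutrophils was at 123 CPM in WT food allergy, against 11.7 to 74.9 CPM in the others and 19.1 CPM in WT control. Lyve1 in macrophages was at 15.8 CPM in WT food allergy, against 37.5 to 73.3 CPM in the others. Camp in neutrophils lay outside on both sides, below 13022 CPM in WT control and above 18723 CPM in WT food allergy. Calca in ILC2 was at 3335 CPM in App NL-G-F control and 365 CPM in App NL-G-F food allergy, beside 3386 CPM in WT control and 238 CPM in WT food allergy. Il5 in ILC2 was at 77.1 and 13.4 CPM in those App NL-G-F libraries. Il17a in T cells was at 546 and 53.1 CPM there, beside 247 and 81.3 CPM in the WT pair. Each of these is 1 library, and no difference between genotypes was tested.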

How the data were processed

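Brain CD45.2+ cells had been sequenced in 8 libraries made by the 5′ chemistry of 10x Genomics, of which WT control and WT food allergy were compared. Per the labels, the authors made the matrices with Cell Ranger 6.1.2 on mm10. They deposited raw counts: UMIs of each gene, and of each hashtag, in every barcode, without normalization. No normalized values of the authors were used. Receptor sequences were left out.

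The cells of WT control and WT food allergy kept here held 29196718 and 27168966 gene UMIs, with a median of 2647 and 3341.5 per cell. UMIs were summed per gate and hashtag group. No doublet caller was run. The hashtag ratio left out barcodes with several hashtags, whether mixtures or not, and cells in no other gate were an alternative. With 1 library per condition no gene was tested. Shares carry exact binomial 95% intervals, and differences Newcombe intervals. The exact permutation test of hashtag group means was run on the 6 gates. Its p-values carry a Benjamini-Hochberg adjustment. The genes named were the 5 largest rises and falls called in each gate whose level exceeded the free RNA, without gate genes, V, D and J segments, mitochondrial and unnamed genes, together with every called gene of the lists and up to 4 others per list by ratio. Further genes of the lists were named after their values had been seen, and 1 gene is not reported here. The members, the 31 gene lists and the immediate-early sets were chosen with earlier results of these data known. Transcript lengths are medians over the protein-coding transcripts of GENCODE vM21 (GRCm38). The scripts were tested on simulated data. Python 3.11.15, numpy 2.4.6, scipy 1.17.1 and pandas 2.3.3 were used. The alternatives covered filters, hashtag rules, added CPM, scaling, free RNA, depth and leaving out each hashtag group. Added after seeing the data were centring by transcript length, leaving out gated cells with 10 or more S100a8 UMIs, and other neutrophil gates.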

Additional observations from a re-analysis of the deposited data

How the results depend on the processing

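The differences in the neutrophil, macrophage, T, B and NK cell shares kept their direction when any 1 hashtag group was left out, with ranges of 6.82 to 9.43, 2.71 to 6.96, −11.0 to −3.37, −8.11 to −4.81 and −2.56 to −0.643 percentage points. The ILC2 difference (0.200 points) ranged from −1.33 to 1.49. It was −0.872 over all cells whatever their hashtag, −0.379 in cells thinned to 500 UMIs, −0.0585 in cells of no other gate, −0.00335 without gated cells holding 10 or more S100a8 UMIs, −2.85 in the high set and 8.31 in the low set. In the low set the T cell difference was 1.79, the NK cell difference 3.98, the macrophage difference 0.714 and the neutrophil difference 0.541 points. Thinning to 500 UMIs gave −3.39 points for B cells and 0.992 for neutrophils, whose gate asks for 10 UMIs of 1 gene. With 50 CPM added, called genes numbered 18 in T, 15 in B, 11 in NK, 19 in ILC2, 67 in macrophage and 41 in neutrophil gates. With 1 CPM added they numbered 54 in NK cells and 77 in ILC2. With no minimum they numbered 57 in T, 58 in NK, 82 in ILC2, 221 in macrophage and 132 in neutrophil gates. Without genes below the free RNA, 18, 92 and 36 were called in T cells, macrophages and neutrophils, and median-of-ratios scaling gave 65 in T cells. The high set alone gave 153, 184, 111 and 201 in T, B, NK and ILC2 gates. Leaving out 1 hashtag group gave 32 to 127 calls in T cells, 41 to 142 in B cells, 33 to 76 in NK cells, 61 to 92 in ILC2, 139 to 145 in macrophages and 75 to 78 in neutrophils. Gene calls could not be made in the low set, which has 1 WT food allergy group, nor in macrophages and neutrophils without WT control hashtag 6 or 7 or WT food allergy hashtag 4 or 5. Apart from what each alternative leaves out by construction, the cause of these moves was not tested. No paired analysis was possible because the labels carry no replicate numbers.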

Other observations

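Cells outside the 6 gates were described by marker sums over all cells of each library, without a test. Basophil markers summed to 1028 CPM in WT control and 227 CPM in WT food allergy, with 506, 2378, 259 and 363 CPM in WT control hashtags 4, 5, 6 and 7 and 37.9, 264 and 1357 CPM in WT food allergy hashtags 4, 5 and 7. The groups of the libraries overlapped. Cells with at least 2 basophil markers made up 1.39% of WT control and 1.07% of WT food allergy. Mast cell markers stood at 374 and 400 CPM. Eosinophil markers stood at 130 and 42.4 CPM, with 3 and 0 cells holding at least 2 of them. Plasma cell markers stood at 2494 and 3717 CPM. By hashtag they were at 1580 to 3127 CPM in WT control and at 5499, 2184 and 1099 CPM in WT food allergy hashtags 4, 5 and 7, so the groups overlapped. Monocyte markers stood at 2112 and 2396 CPM, but cells with at least 2 of them made up 22.3% and 37.5%. That share was 14.9%, 15.2%, 27.1% and 29.3% in WT control hashtags 4 to 7 and 41.8%, 38.3% and 15.1% in WT food allergy. Cells with at least 2 markers of conventional dendritic cells made up 4.56% and 6.72%.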
